A study of Rattus norvegicus with 44 samples.

Results

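The transcripts described here encode 9 proteins that the liver secretes into plasma: Alb, Apoa1, Apoa2, Fga, Fgb, Fgg, Ahsg, Ambp and Serpina3c. They were taken by gene symbol from an array table of 14055 probes and 10412 named genes, and all 9 were found, on 15 probes. Serpina3c was reached through an older symbol of the same accession. The genes were chosen by their measured log2 levels on the blood arrays of this study, where some arrays stood out, so their own levels and differences in blood are given as a description, with no test.

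The data are 44 arrays with 1 dye from male Sprague-Dawley rats of the NCTR strain, 3 months old, in 11 groups of 4 arrays. Amphetamine (AMPH) was given at doses the labels call neurotoxic, without stating them; environmentally induced hyperthermia (EIH) means rats overheated by their surroundings; saline rats were the controls. Trunk blood, collected at decapitation, was hybridised 1 rat to an array from AMPH, EIH and saline rats at 3 h and again from AMPH, EIH and saline rats at 1 day. Choroid plexus, the secretory epithelium of the brain ventricles, was hybridised as pools of 3 rats: AMPH, EIH and saline at 3 h, and AMPH and EIH at 1 day. The EIH pools of 1 day carry titles that call them controls, while their other labels say EIH; a 1 day saline pool was not analysed here. A tag on the blood samples mentions striatum, but the erythrocyte genes Slc4a1 and Epb42 had median log2 levels of 13.78 and 13.61 over the 24 blood arrays.

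Hepatocytes make most of the protein of plasma, and liver is the main source of these messages. Albumin carries ligands and holds water in the vessels, apolipoproteins A-I and A-II are the proteins of high-density lipoprotein, and the 3 fibrinogen chains form the precursor of the clot. Fetuin-A (Ahsg), the precursor of alpha-1-microglobulin and bikunin (Ambp) and the protease inhibitor Serpina3c are secreted glycoproteins. In hepatocytes such genes are driven by liver-enriched factors, among them HNF1, and the fibrinogen genes also by interleukin-6 during the acute phase.

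Alb and the fibrinogen genes are shown by the 250 bases before their annotated starts. Alb and Fgb had the widest ranges over the blood arrays, and the 3 fibrinogen genes are neighbours. RefSeq windows on the GRCr8 build existed for 6 of the 9 genes. The Alb stretch lies at chr14:17906980-17907229 on the minus strand. The fibrinogen stretches lie within 48293 bases of chromosome 2, at chr2:170671919-170672168 (Fga, plus strand), chr2:170700876-170701125 (Fgb, minus strand) and chr2:170652833-170653082 (Fgg, plus strand). Capitals mark matches to the HNF1 palindrome (GTTAAT, any base, ATTAAC, the same on both strands), with at most 2 mismatches, and exact matches on either strand to CTGGGAA, the interleukin-6 response element. Sequences run 5′ to 3′ on the gene's strand.
Alb: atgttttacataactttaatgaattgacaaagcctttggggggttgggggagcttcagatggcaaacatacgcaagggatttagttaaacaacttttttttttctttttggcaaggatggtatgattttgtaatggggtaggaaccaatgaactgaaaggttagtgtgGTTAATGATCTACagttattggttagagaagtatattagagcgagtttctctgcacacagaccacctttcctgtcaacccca
Fga: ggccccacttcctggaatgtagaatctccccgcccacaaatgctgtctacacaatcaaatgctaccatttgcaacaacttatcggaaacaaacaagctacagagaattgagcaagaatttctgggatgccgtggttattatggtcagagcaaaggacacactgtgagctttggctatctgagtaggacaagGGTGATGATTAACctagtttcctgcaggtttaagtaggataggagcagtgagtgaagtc
Fgb: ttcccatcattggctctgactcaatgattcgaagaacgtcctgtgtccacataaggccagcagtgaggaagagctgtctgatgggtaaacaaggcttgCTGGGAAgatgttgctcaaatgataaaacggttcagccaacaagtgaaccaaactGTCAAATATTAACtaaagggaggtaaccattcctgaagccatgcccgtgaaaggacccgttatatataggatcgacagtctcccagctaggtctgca
Fgg: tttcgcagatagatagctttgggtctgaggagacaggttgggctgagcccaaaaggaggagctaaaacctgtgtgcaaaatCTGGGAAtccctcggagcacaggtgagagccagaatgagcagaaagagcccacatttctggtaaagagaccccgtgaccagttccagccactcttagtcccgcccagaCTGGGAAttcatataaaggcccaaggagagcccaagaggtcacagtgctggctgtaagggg

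The HNF1 match was GTTAATGATCTAC in Alb, 82 to 70 bases before the start, GGTGATGATTAAC in Fga, and GTCAAATATTAAC in Fgb, each with 2 mismatches. CTGGGAA occurred once in the Fgb window and 2 times in the Fgg window, and on the minus strand of the Ahsg window. Of 33469 windows of 300 bases on the build, 399 (1.19%) held such an HNF1 match and 3772 (11.3%) held CTGGGAA. These matches describe letters, not bound factors.

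The median probe had an intensity of 139 to 146 at 3 h and of 165 to 171 at 1 day, so the 2 times look separately scaled, and group levels are compared only within a time. Blank cells made up 8.57% of blood values. The deposited values carry no detection call, and 90.8% to 94.7% of the probe values on a blood array were shared exactly with another probe of that array. Of 204 plasma protein values in blood, 25 on 8 arrays equalled that of another of the 9 genes, up to a log2 level of 7.04, and the order of values in that low range is not read. The number of arrays limits the precision. P-values below set a difference of groups against the spread of arrays within groups, which may be of rats or technical.

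The 9 transcripts were high together on 6 of the 24 blood arrays and on none of the others. Each transcript was set against its own median over the 24 blood arrays, and more than 2 log2 units above that median was counted as high. All 9 were high on AMPH 3 h replicate 4 and on EIH 3 h replicate 1, 8 on AMPH 3 h replicate 2 and on AMPH 1 day replicate 3, 6 on saline 1 day replicate 2 and 5 on AMPH 3 h replicate 1. On the other 18 arrays, which include all 4 of saline 3 h and all 4 of EIH 1 day, 0 values were high. By group, arrays with 5 or more high transcripts were counted. At 3 h, this was 3 of 4 rats for AMPH and 1 of 4 for EIH against 0 of 4 for saline. At 1 day, it was 1 of 4 for AMPH and 0 of 4 for EIH against 1 of 4 for saline.

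The median deviation of the 9 genes gives 1 figure for an array. At 3 h it was 2.11, 3.09, 0.30 and 5.51 in AMPH blood, 3.68, -0.79, -0.45 and 0.36 in EIH blood, and -1.35, 0.17, -1.55 and -2.35 in saline blood, in the order of replicates 1 to 4. At 1 day it was -1.73, -1.38, 2.64 and -0.17 in AMPH blood, -1.91, -2.68, 0.01 and 0.05 in EIH blood, and -1.30, 2.09, 0.14 and -1.20 in saline blood. No array lay between 0.36 and 2.09, so the arrays formed an upper run of 6 and a lower run of 18. Over all genes measured, 2.66%, 2.41% and 3.78% were high on AMPH 3 h replicates 1, 2 and 4, 2.84% on EIH 3 h replicate 1, 3.25% on AMPH 1 day replicate 3 and 1.7% on saline 1 day replicate 2, within the 0.324% to 5.59% over the 24 arrays. With medians taken within each time, AMPH 3 h replicate 1 had 3 high transcripts in place of 5, and the other 5 arrays kept their counts. By that measure this rat falls under the 5 that marked an array, and the AMPH count at 3 h loses it.

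**Figure D1:**
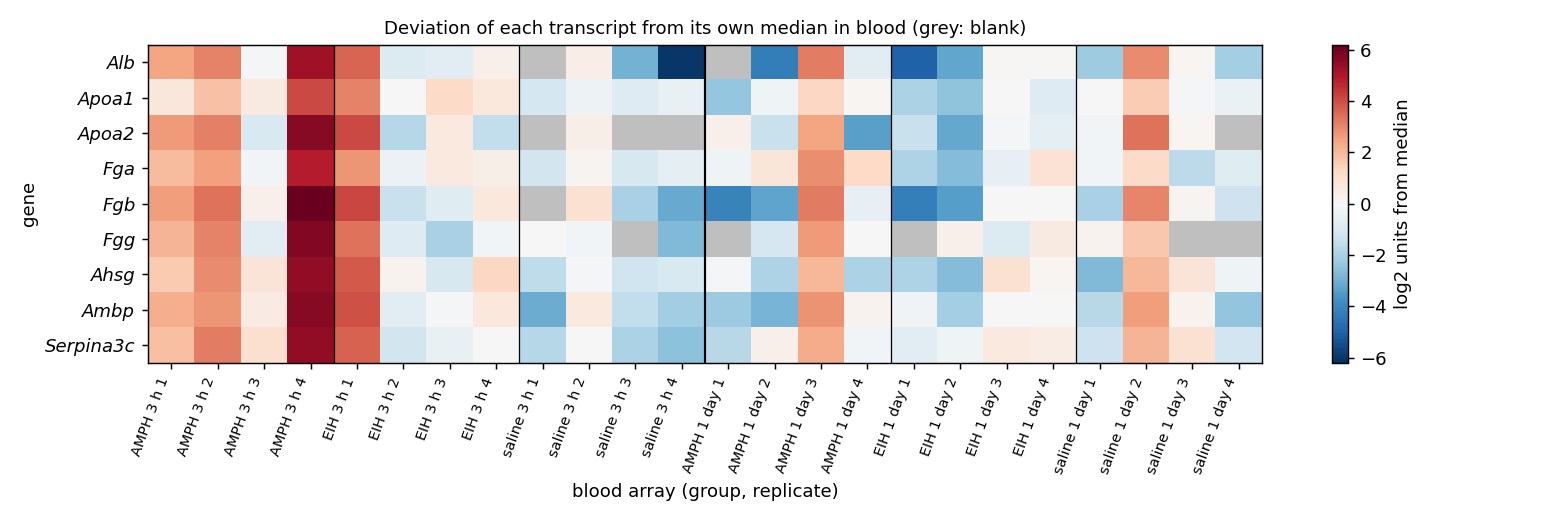
Colour gives the deviation, in log2 units, of each of the 9 transcripts (rows) from its own median over the 24 blood arrays (columns, by group and replicate); grey cells are blank. AMPH 3 h replicates 1, 2 and 4, EIH 3 h replicate 1, AMPH 1 day replicate 3 and saline 1 day replicate 2 are red in nearly every row, and AMPH 3 h replicate 4 is the deepest, at 4.11 to 6.13.

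Albumin had the widest range in blood of the 9, 11.27 log2 units between its lowest and highest array. At 3 h the Alb log2 level was 12.26, 12.91, 9.77 and 15.06 in AMPH blood, 13.41, 8.98, 9.15 and 10.13 in EIH blood, and a blank, 10.24, 6.89 and 3.80 in saline blood. At 1 day it was a blank, 5.55, 12.99 and 9.11 in AMPH blood, 4.80, 6.59, 9.90 and 9.87 in EIH blood, and 7.59, 12.77, 9.92 and 7.73 in saline blood. The highest saline value at 3 h exceeded the AMPH value of replicate 3, so both groups overlapped, and at 1 day the highest AMPH rat lay at 12.99 and the highest saline rat at 12.77. Alb was high on 6 arrays and nowhere else exceeded its median by more than 0.42.

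Apoa1 moved over a narrower range than the others. Its log2 level at 3 h was 7.44, 8.58, 7.31 and 10.87 in AMPH blood, 9.82, 6.77, 7.96 and 7.41 in EIH blood, and 5.67, 6.46, 5.98 and 6.30 in saline blood. Every AMPH rat therefore lay above every saline rat at 3 h. The lowest EIH value, 6.77, and the highest saline value, 6.46, both lie in the range where order is not read. At 1 day it was 4.38, 6.48, 8.03 and 6.86 in AMPH blood, 4.80, 4.25, 6.75 and 5.96 in EIH blood, and 6.78, 8.33, 6.70 and 6.36 in saline blood, with overlap. Apoa1 had the lowest deviation of the 9 genes on 4 of the 6 arrays with many high transcripts and the next lowest, after Fga, on the rest. It passed 2 log2 units on EIH 3 h replicate 1 and AMPH 3 h replicate 4 only.

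Apoa2, which encodes the partner apolipoprotein, was the transcript most often blank in saline blood at 3 h. Its log2 level there was 9.40, 9.92, 5.85 and 12.41 in AMPH blood and 10.87, 5.01, 7.36 and 5.23 in EIH blood, against 7.14 in saline replicate 2 and blanks in the 3 other saline rats. At 1 day it was 7.11, 5.39, 9.20 and 3.43 in AMPH blood, 5.40, 3.60, 6.66 and 6.18 in EIH blood, and 6.62, 10.14, 6.89 and a blank in saline blood. A blank may or may not stand for a low level, since its rule is not given in the sources used here.

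The fibrinogen chains followed the same arrays. At 3 h the Fgb log2 level was 10.23, 11.004, 7.94 and 13.77 in AMPH blood, 11.80, 6.25, 6.88 and 8.28 in EIH blood, and a blank, 8.59, 5.63 and 4.53 in saline blood. At 1 day it was 3.51, 4.36, 10.85 and 7.14 in AMPH blood, 3.41, 4.25, 7.66 and 7.64 in EIH blood, and 5.64, 10.67, 7.80 and 6.36 in saline blood. Fgb, the beta chain, had the highest deviation of the 9 on 4 of the 6 arrays, up to 6.13 on AMPH 3 h replicate 4.

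Fga, the alpha chain, had log2 levels at 3 h of 8.23, 8.84, 6.10 and 11.14 in AMPH blood, 9.01, 5.94, 6.88 and 6.65 in EIH blood, and 5.16, 6.46, 5.27 and 5.74 in saline blood. At 1 day they were 6.01, 7.04, 9.15 and 7.52 in AMPH blood, 4.38, 3.60, 5.76 and 7.16 in EIH blood, and 6.12, 7.49, 4.66 and 5.54 in saline blood. Fga was the only one of the 9 whose mean at 1 day was more than 1 log2 unit higher in AMPH than in saline blood, by 1.48. Even so its groups overlapped, since 2 AMPH rats lay below the highest saline rat.

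For Fgg, the gamma chain, the log2 levels at 3 h were 8.12, 9.10, 5.35 and 11.72 in AMPH blood, 9.38, 5.22, 3.97 and 5.83 in EIH blood, and 6.01, 5.81, a blank and 3.25 in saline blood. At 1 day they were a blank, 4.95, 8.65 and 5.99 in AMPH blood, a blank, 6.32, 5.16 and 6.56 in EIH blood, and 6.22, 7.70 and 2 blanks in saline blood. At 3 h every AMPH rat but replicate 3 lay above every saline rat. AMPH replicate 3 and the saline values lie in the low range, where order is not read.

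Ahsg, which encodes a protein that keeps calcium phosphate in solution, had log2 levels at 3 h of 7.91, 9.20, 7.06 and 11.79 in AMPH blood, 10.07, 6.52, 5.32 and 7.56 in EIH blood, and 4.72, 6.17, 5.06 and 5.36 in saline blood. By this probe all 4 AMPH rats lay above all 4 saline rats, while EIH replicate 3 and the highest saline rat both lie in the low range. By the other Ahsg probe, AMPH replicate 3 stood at 5.35 and saline replicate 2 at 6.05, with the other saline rats blank. Those 2 values lie in the low range too, so that probe does not separate the groups. At 1 day the levels were 6.16, 4.36, 8.36 and 4.34 in AMPH blood, 4.38, 3.60, 7.23 and 6.41 in EIH blood, and 3.56, 8.34, 7.07 and 6.03 in saline blood.

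Ambp had log2 levels at 3 h of 9.77, 10.26, 8.05 and 13.19 in AMPH blood, 11.48, 6.90, 7.44 and 8.21 in EIH blood, and 4.44, 8.16, 5.98 and 5.36 in saline blood. AMPH replicate 3 and EIH replicates 2 and 3 lay below saline replicate 2, so both exposed groups overlapped with saline. At 1 day the levels were 5.26, 4.63, 10.30 and 7.75 in AMPH blood, 7.29, 5.44, 7.54 and 7.52 in EIH blood, and 5.81, 10.13, 7.73 and 5.06 in saline blood.

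Serpina3c belongs to a family of closely related rodent inhibitor genes, and binding of their RNA to the probe was not tested. Its log2 level at 3 h was 8.62, 9.94, 7.71 and 12.24 in AMPH blood, 10.42, 5.59, 6.29 and 6.78 in EIH blood, and 4.97, 6.70, 4.76 and 4.21 in saline blood, so that every AMPH rat lay above every saline rat. At 1 day it was 5.01, 7.04, 9.04 and 6.57 in AMPH blood, 6.07, 6.45, 7.33 and 7.21 in EIH blood, and 5.44, 8.83, 7.67 and 5.54 in saline blood.

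**Figure D2:**
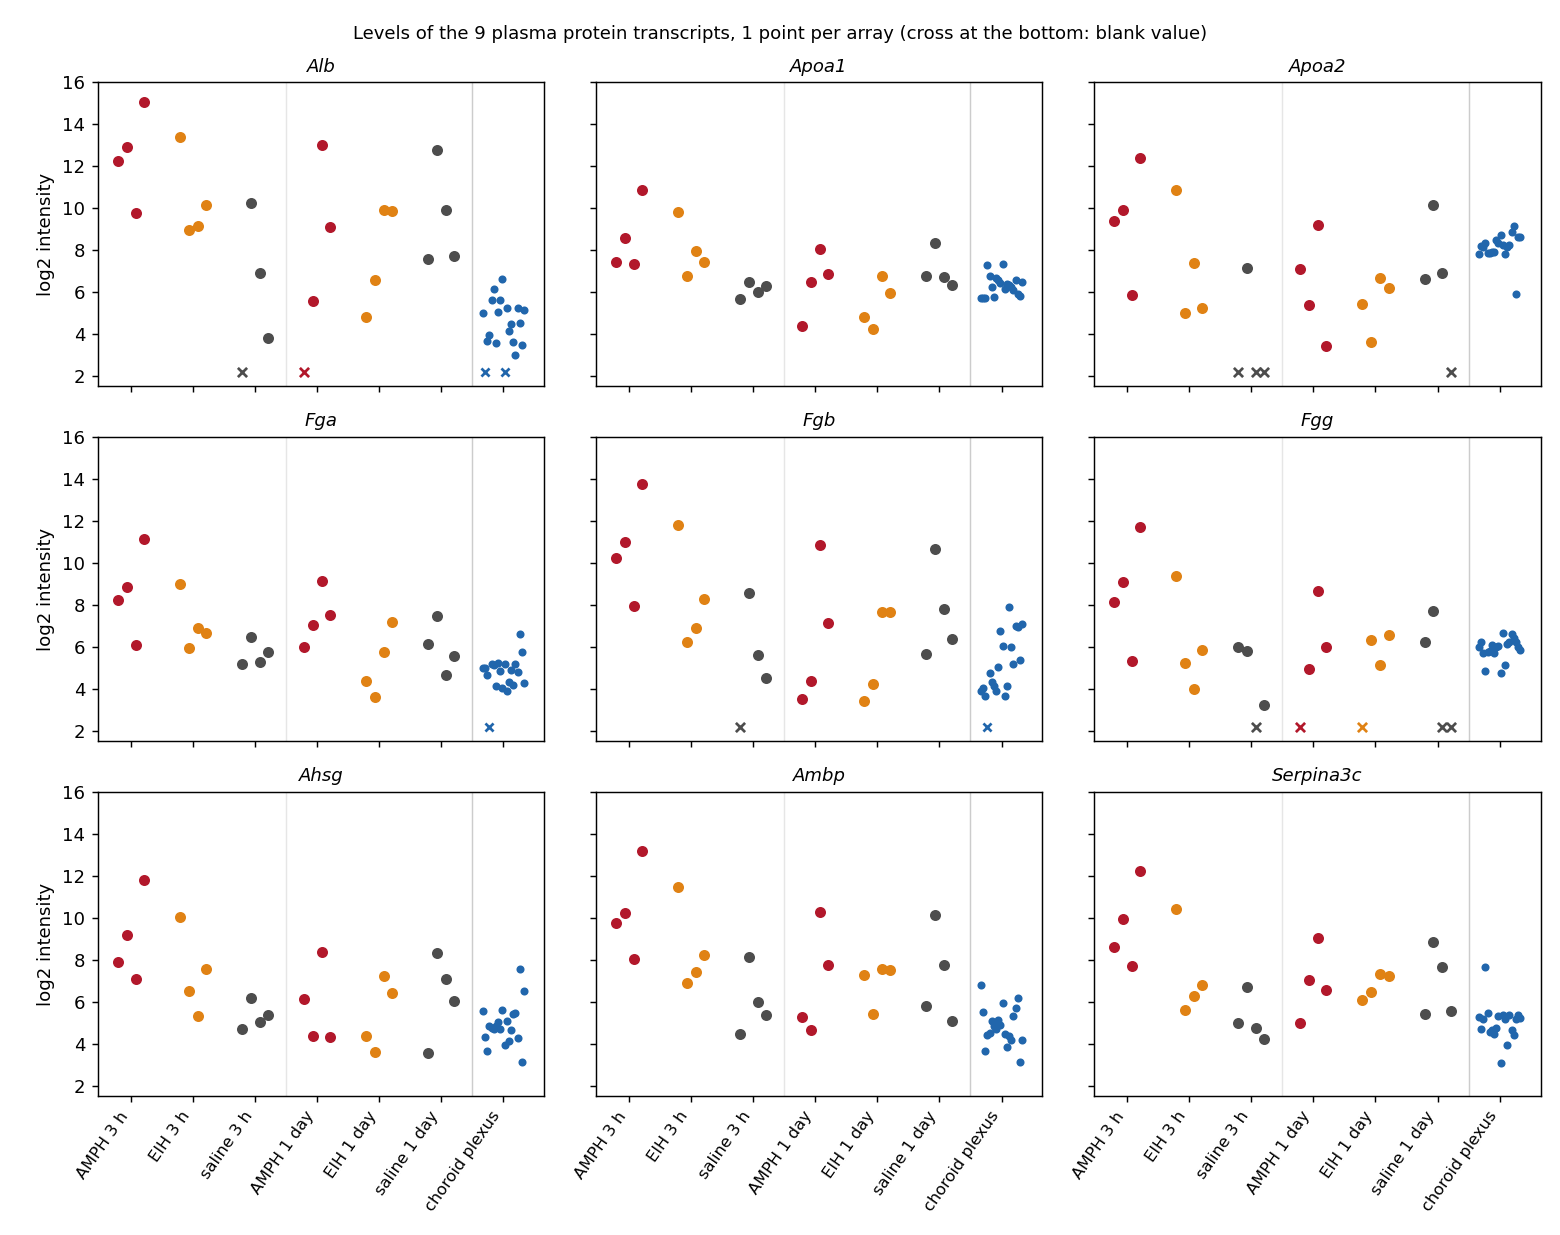
Each panel shows the log2 intensity of a transcript, 1 point per array, for the 6 blood groups (AMPH red, EIH orange, saline grey, replicates 1 to 4 in order within a group) and the 20 choroid plexus pools (blue); crosses at the bottom are blank values. AMPH 3 h replicate 4 is the highest blood array in all 9 panels, and the choroid plexus pools stay between 3.00 and 9.14.

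Group means at 3 h were higher in AMPH than in saline blood for all 9 transcripts, with wide spreads. Alb averaged 12.50 ± 2.18 in AMPH blood and 6.98 ± 3.22 in saline blood (SD, n = 4 and 3), a difference of 5.52 log2 units. The difference was 4.49 for Fgb, 4.46 for Serpina3c, 4.33 for Ambp, 3.66 for Ahsg, 3.55 for Fgg, 2.92 for Fga, 2.45 for Apoa1 and 2.25 for Apoa2, whose saline side is a single value. Of the 8 transcripts with at least 2 values a group, 3 (Apoa1, Ahsg and Serpina3c) had every AMPH rat above every saline rat, beside 11.2% of all genes, and 0 had every AMPH rat below, beside 10.2%. Since the same levels chose the genes, and the other Ahsg probe did not separate the groups, nothing is read from these counts. Leaving out the AMPH rat of replicate 4 lowered the differences of 7 of these 8 most, to 1.67 for Apoa1 and 3.59 for Serpina3c at the ends. For Alb the lowest value was 3.93, without saline replicate 4.

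EIH blood at 3 h differed less from the same saline arrays, and part of the difference lay with 1 rat. Ambp averaged 8.51 ± 2.06 in EIH blood and 5.99 ± 1.58 in saline blood (SD, n = 4 each), a difference of 2.52. The other differences were 3.44 for Alb, 2.11 for Serpina3c, 2.06 for Fgb, 2.04 for Ahsg, 1.89 for Apoa1, 1.46 for Fga, 1.08 for Fgg and -0.02 for Apoa2, again against 1 saline value. Without EIH replicate 1 the difference was 0.83 for Fga, 0.89 for Fgb, 1.06 for Serpina3c, 1.14 for Ahsg, 1.28 for Apoa1, 1.53 for Ambp and -0.01 for Fgg. For Alb, the largest difference, the lowest value leaving out 1 array was 1.85, without saline replicate 4. By the values as listed, Apoa1 had every EIH rat above every saline rat, 1 of 8 beside 12.1% of all genes, though it rests on 6.77 against 6.46 in the low range, and 0 of 8 had every EIH rat below, beside 13% of all genes. AMPH and EIH share their saline arrays.

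At 1 day the means of exposed rats were at most 0.04 above those of saline rats, except for Fga in AMPH blood. For AMPH the differences from saline were 1.48 for Fga, 0.04 for Serpina3c, -0.20 for Ambp, -0.29 for Alb, -0.43 for Fgg, -0.45 for Ahsg, -0.60 for Apoa1, -1.15 for Fgb and -1.60 for Apoa2. For EIH they were -0.10 for Serpina3c, -0.24 for Ambp, -0.73 for Fga, -0.85 for Ahsg, -0.95 for Fgg, -1.60 for Apoa1, -1.72 for Alb, -1.88 for Fgb and -2.42 for Apoa2. In both comparisons 0 of 9 transcripts had groups apart: beside this, every AMPH rat lay above every saline rat for 6.69% of all genes and below for 5.09%, and every EIH rat above for 3.81% and below for 3.94%. Saline replicate 2 and AMPH replicate 3 carried most of the spread: without this saline rat, Ahsg was 0.25 higher in AMPH blood and Ambp 0.75 higher in EIH blood, and without this AMPH rat, Serpina3c was -0.67 from saline.

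**Figure D3:**
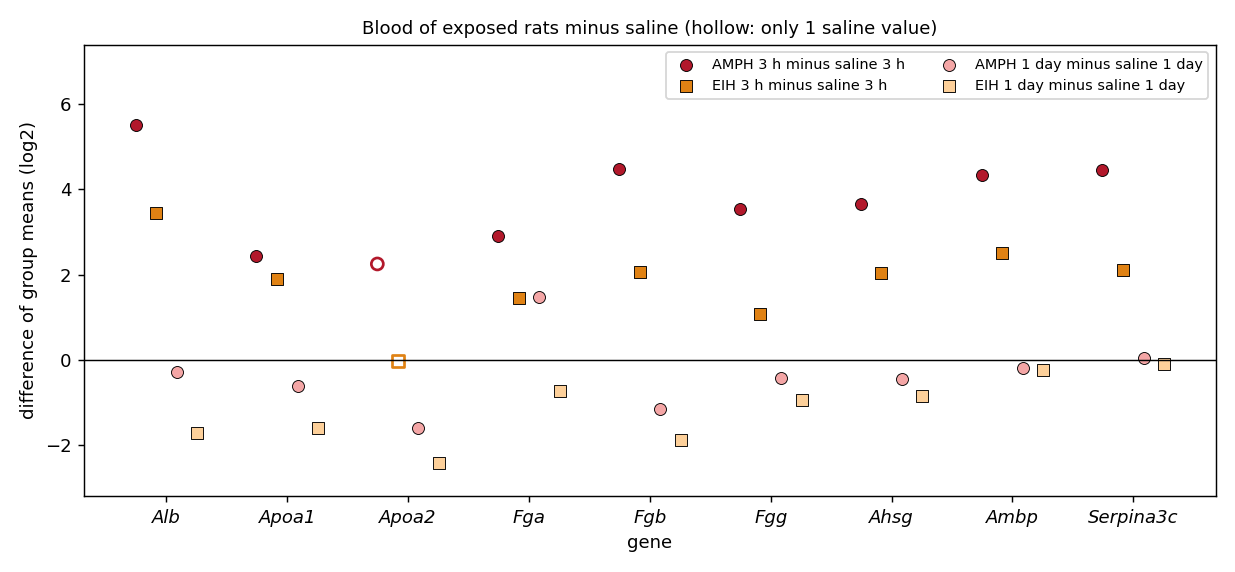
Points give the difference of group means, exposed minus saline, in log2 units, for each transcript and comparison; hollow points rest on 1 saline value, and no error is drawn because the values of every rat are shown by level. The dark red points (AMPH 3 h) lie between 2.25 and 5.52, and all but one of the pale points (1 day) lie at or below 0.04.

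The 9 transcripts varied together over the blood arrays. Over the 36 pairs, Pearson's r between log2 levels was 0.70 to 0.97 (median 0.83), and Spearman's rho was 0.54 to 0.98 (median 0.74), on 17 to 24 shared arrays. Pairs share each array's labelling and scaling, so these figures are a description. Without the 2 arrays farthest from the median, r was 0.39 to 0.99 (median 0.75). Since the arrays fell into 2 runs, r was also taken within each. It was 0.74 to 1.00 (median 0.96) on the 6 arrays, and -0.40 to 0.94 (median 0.39) on the other 18, where 31 of 36 pairs were positive and many values lay in the low range. In the choroid plexus pools, where most values were also that low, the same pairs gave -0.64 to 0.42 (median 0.04).

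Other probes of the same genes mostly followed the probe used. Over the blood arrays, r with that probe was 0.91 and 0.92 for the other Alb probes, 0.94 for another Fgb probe, 0.82 for Fgg and 0.85 for Ahsg. The exception was the last Fgb probe, which was blank on 9 blood arrays and lay between 3.20 and 6.02 on the rest (r = -0.26 over 15 arrays).

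Of the 12 genes most like the 9 over the blood arrays, 10 were on the lists of liver genes described below. Those lists held 110 of the 6930 genes ranked. They were made with earlier results of these data known, so the count is a description. Likeness was Pearson's r with the median deviation of the 9, over 6930 other genes with at least 16 values and an SD of at least 0.5. The 12 closest were Spp2 (0.97), a secreted phosphoprotein; Cyp2e1 (0.96), which oxidises ethanol; Gsta2 (0.95), a glutathione transferase; Apoh (0.95) and Apoc1 (0.95), 2 further apolipoproteins; Rgn (0.94), regucalcin; Fabp1 (0.94), the liver fatty acid binding protein; Serpina1 (0.93), alpha-1-antitrypsin; Vtn (0.93), vitronectin; Azgp1 (0.92); Rbp4 (0.92), which carries retinol; and Mup5 (0.91), a major urinary protein of a multigene family. Within the lower run of 18 arrays the r of these 12 was 0.55 to 0.87 (median 0.70). The 12 were picked by r over all blood arrays, these 18 among them, so this too is a description. Cyp2e1 had log2 levels at 3 h of 7.5, 8.8, 5.9 and 11.1 in AMPH blood, 9.5, 4.8, 5.1 and 5.1 in EIH blood, and 4.8, 5.7, 4.2 and 4.7 in saline blood.

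**Figure D4:**
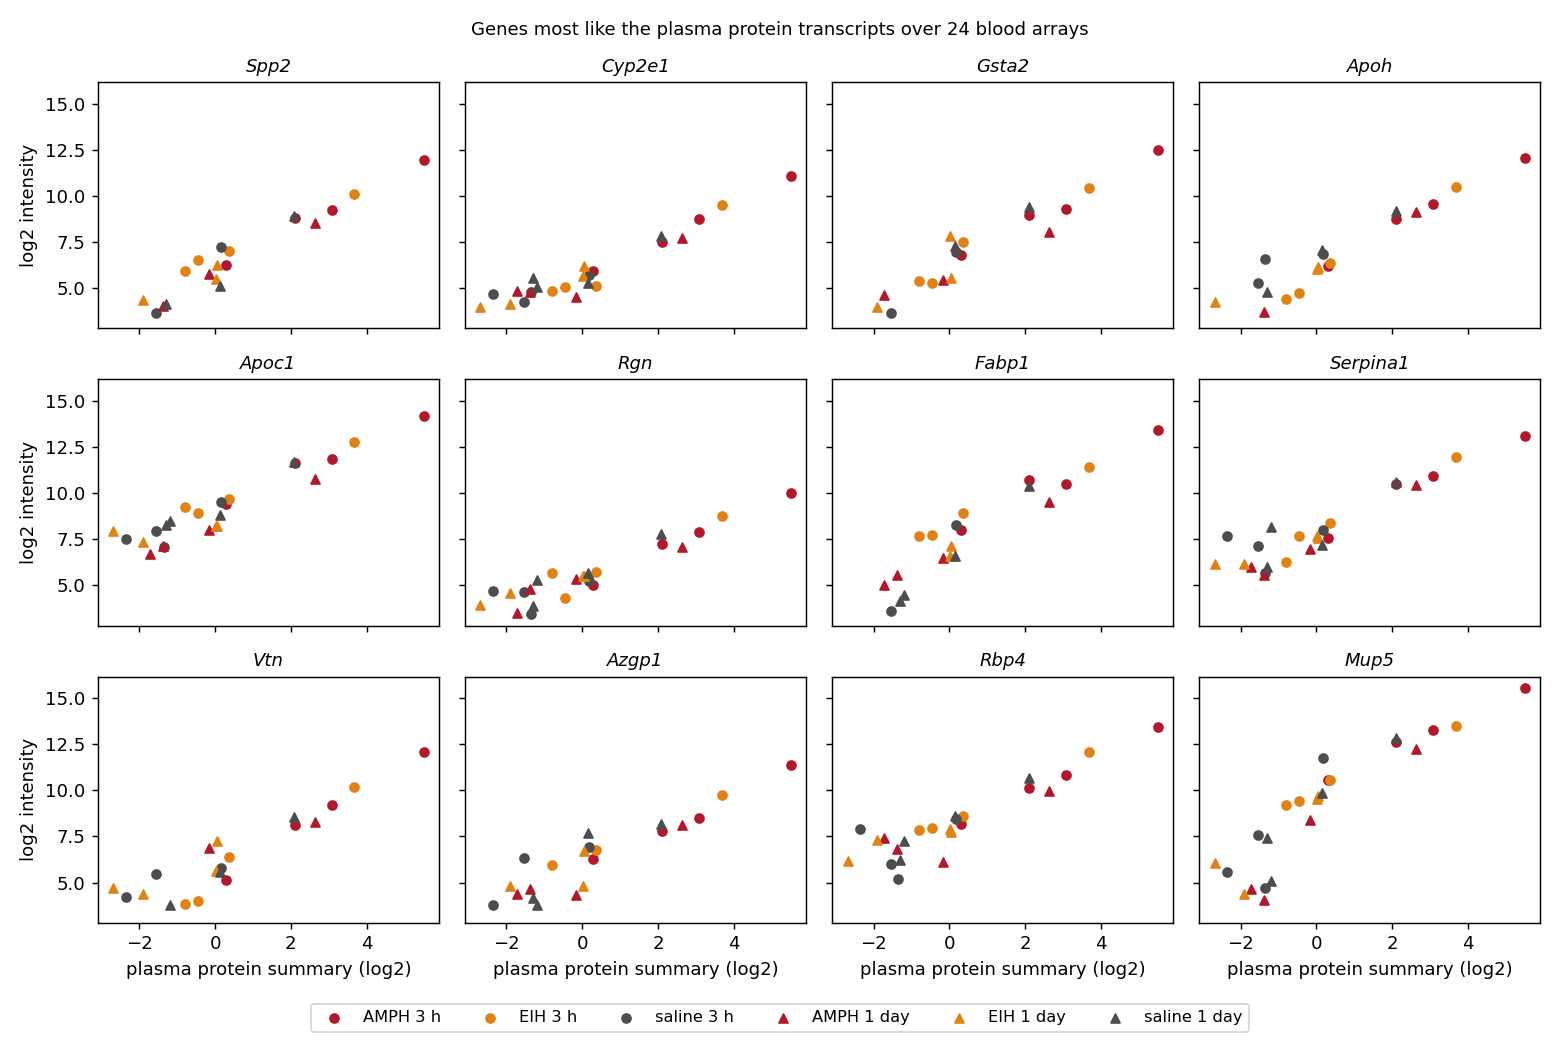
Each panel plots the log2 intensity of a gene against the median deviation of the 9 plasma protein transcripts, 1 point per blood array, with circles for 3 h, triangles for 1 day, and red, orange and grey for AMPH, EIH and saline. The point at the upper right of every panel is AMPH 3 h replicate 4.

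The lists of other liver genes were followed on the same arrays: 71 plasma protein genes and 63 genes of hepatocyte enzymes and transporters. Of the 35 genes with r over 0.8, 25 were on these lists, out of 110 list genes that could be ranked. On AMPH 3 h replicate 4, 45 of the 71 and 27 of the 63 were high. The counts were 22 and 19 on EIH 3 h replicate 1, 16 and 8 on AMPH 3 h replicate 2, 14 and 6 on AMPH 1 day replicate 3, 16 and 7 on saline 1 day replicate 2, and 11 and 5 on AMPH 3 h replicate 1. Each of the other 18 arrays had 0 to 4 and 0 to 5. Ttr, made by liver and by choroid plexus, followed the 9 as well (r = 0.91), whereas the 12 genes of the choroid plexus list had at most 2 high on any blood array.

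Lists of other tissues did not mark the same set of 6 arrays, though some marked arrays among them. Salivary gland genes were high on saline 3 h replicate 2 (10 of 16), AMPH 3 h replicates 2 and 3 (6 each), saline 1 day replicate 3 (5) and EIH 1 day replicate 4 (4), and at most 1 elsewhere. Spt1, a salivary protein gene, reached 14.60 on that saline array beside a median of 6.72, and Klk1b3, a kallikrein gene, 13.03 beside 5.24. Of the 5 arrays, AMPH 3 h replicate 2 is the only one with many high plasma protein transcripts. Of 14 skeletal muscle genes, 5 were high on AMPH 3 h replicate 2 and 4 on EIH 3 h replicate 1, and at most 2 elsewhere. Myh4, a fast myosin gene, stood at 9.13 and 9.37 there beside a median of 5.44. Both arrays have many high plasma protein transcripts. Kidney, pancreas, lung, fat, gut, thyroid, neuron and keratinocyte lists had at most 2 high genes on any array. Slc34a1, a phosphate transporter of kidney, stood at 12.64 on AMPH 3 h replicate 1 beside a median of 5.16. That array too has many high plasma protein transcripts.

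**Figure D5:**
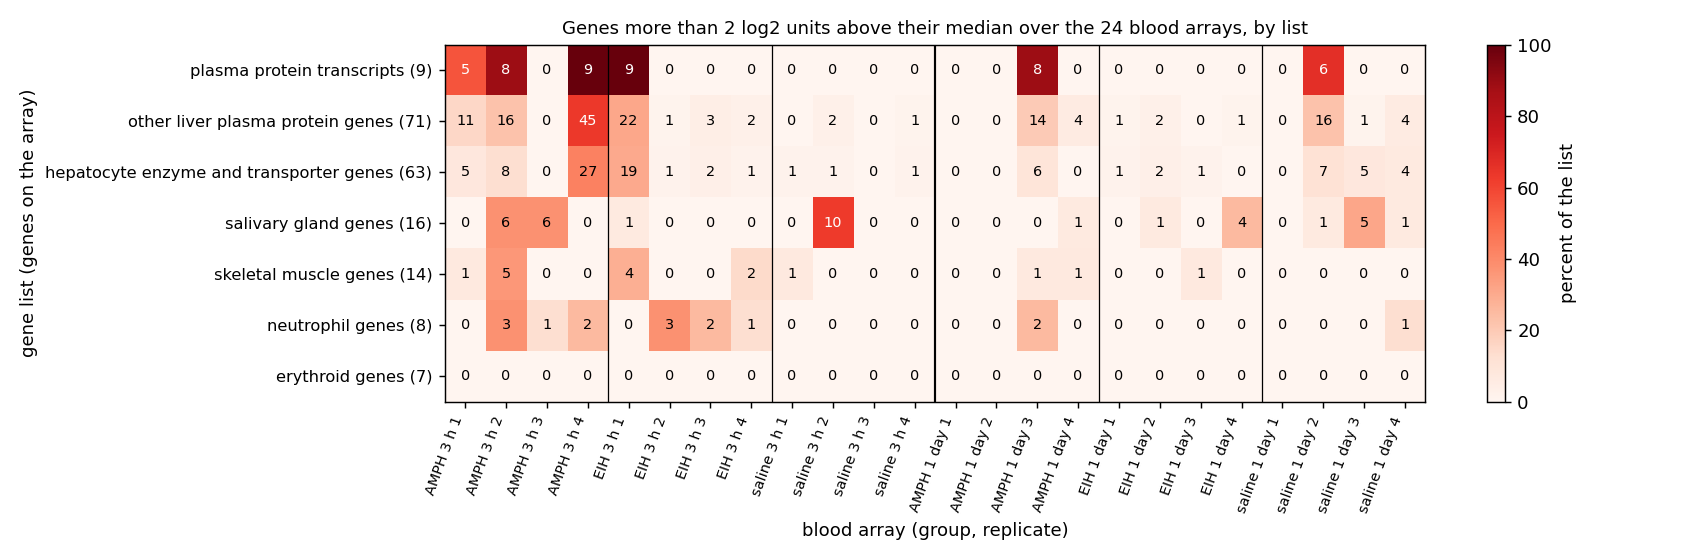
Numbers count the genes of each list that were more than 2 log2 units above their own median on a blood array, and colour gives the percent of the list. The other liver plasma protein row counts 11 to 45 on the 6 arrays high in the 9 transcripts and 0 to 4 elsewhere. The salivary row peaks on saline 3 h replicate 2, and the erythroid row is 0 throughout. Whether the brightest erythroid probes could rise further was not tested.

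Markers of some blood cells differed with exposure at 3 h. For 8 neutrophil genes, intensities were summed on each array, so the brightest genes weigh most, and log2 of the sum was taken. At 3 h it was 16.1 to 16.9 in AMPH blood and 15.6 to 16.5 in EIH blood, against 14.5 to 15.2 in saline blood. For 6 T cell genes it was 12.5 to 13.6 and 12.1 to 13.5, against 14.2 to 14.6. By gene, 1 of 6 T cell means in AMPH and 0 of 6 in EIH blood were above saline. For 4 B cell genes the log2 sum was 10.8 to 11.3 and 10.3 to 11.3, against 11.7 to 12.2. Cd79b, with a median of 11.08, weighs most in that sum. By gene, 0 of 4 B cell means in AMPH and 1 of 4 in EIH blood were above saline. Blk, with a median of 7.89, was highest on EIH 3 h replicate 2 (9.49) and next on AMPH 3 h replicate 2 (9.07). Monocyte genes (5) gave log2 sums of 14.2 to 14.7 and 13.7 to 15.1, against 13.1 to 13.5. By gene, 5 of 5 monocyte means in AMPH and 4 of 5 in EIH blood were above saline. Platelet genes (5) overlapped, at 16.2 to 16.8 and 16.5 to 16.8, against 16.6 to 16.7. For 7 erythroid genes it was 17.6 to 18.0 over all 24 arrays. Fewer cells of a type and less RNA per cell cannot be told apart in whole blood, and the part of these shifts in the liver gene levels was not tested.

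The other liver genes were tested with limma over all genes of the 24 blood arrays. In AMPH blood at 3 h, 10 of 119 tested liver genes rose and 1 fell at a Benjamini-Hochberg adjusted p under 0.05, which is 9.24% beside 8.68% of all genes (5.08% higher and 3.6% lower), so the share called was near the background. The median difference was 1.42 log2 units over the liver genes and 0.01 over all genes. It was positive for 103 of 119 liver genes, beside 4992 of 9863 genes. The liver genes share arrays and were listed with earlier results of these data known, so these figures are a description. By the values as listed, genes that rose with groups that did not overlap were led by Hpx, the haem carrier hemopexin. Hpx averaged 7.62 ± 2.32 in AMPH blood and 4.35 ± 0.93 in saline blood (SD, n = 4 each). Its difference was 3.27 ± 1.00 (standard error from limma, adjusted p = 0.0473 in limma). Itih3, a hyaluronan-binding inhibitor chain, rose by 2.80 ± 0.73 (adjusted p = 0.0208 in limma), Gulo, an enzyme of vitamin C synthesis, by 2.57 ± 0.58 (n = 4 and 3; adjusted p = 0.0106 in limma) and Saa4 by 2.42 ± 0.69 (adjusted p = 0.0329 in limma). Cyp2c11, a P450 of male rat liver, rose by 1.95 ± 0.57 (adjusted p = 0.0382 in limma), and Nr1h4, the bile acid receptor, differed by -1.93 ± 0.45 (adjusted p = 0.0142 in limma), with means of 3.37 and 5.31 that both lie in the low range. The lowest AMPH and highest saline values also lie in the low range for Hpx, 5.85 and 5.60, and for Gulo, 6.19 and 5.575. The order of these values is not read. Gulo had r of 0.20 and Nr1h4 of -0.60 with the 9 transcripts, unlike Itih3 (0.82), Saa4 (0.82) and Cyp2c11 (0.86).

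The number of calls changed with single arrays. Without AMPH 3 h replicate 4, the array highest in the 9 transcripts, 4 liver genes were called (Agxt, Gulo, Nr1h4 and Tf) and the median difference was 0.91. Without the highest array of each blood group, an alternative chosen after seeing the data, 10 were called, 7 of them shared with the 11, and the median difference was 0.95. Tf, which encodes transferrin, lay at 13.56, 14.01, 13.46 and 14.05 in AMPH blood and at 11.79, 12.36, 12.14 and 11.47 in saline blood, so AMPH replicate 3, low in the 9 transcripts, was as high as the others; its r with them was 0.60.

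In EIH blood at 3 h, 3 of 120 tested liver genes rose and 0 fell, 2.5% beside 12.6% of all genes (5.63% higher and 7% lower). They were Slc22a7, an organic anion transporter, by 2.96 ± 0.91 (adjusted p = 0.039 in limma), Saa4 by 2.41 ± 0.69 (adjusted p = 0.0249 in limma) and Tf by 1.61 ± 0.33 (adjusted p = 0.00274 in limma). Saa4 and Tf had every EIH rat above every saline rat. For Slc22a7 the lowest EIH value, 6.04, and the highest saline value, 5.81, lie in the range where order is not read. All 3 stayed called without the highest array of each group. The median difference was 0.63 over the liver genes and 0.08 over all genes.

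At 1 day, Tf was the only one of 120 tested liver genes called in AMPH blood (0.833% beside 2.08% of all genes, 1.64% higher and 0.439% lower), higher by 1.47 ± 0.33 (adjusted p = 0.0285 in limma). In EIH blood, Cyp4a2, a fatty acid hydroxylase, was the only one of 117 (0.855% beside 0.082% of all genes, 0.0512% higher and 0.0307% lower), at 8.83 ± 0.39 against 9.96 ± 0.13 in saline blood (SD, n = 4 each; difference -1.13 ± 0.21; adjusted p = 0.0454 in limma). Each of these calls was lost under some alternatives. The median difference over the liver genes was -0.20 for AMPH and -0.46 for EIH. Among the largest differences at 1 day that did not pass the test were -2.22 for Cyp1a2 in AMPH blood (n = 3 and 2), and -2.40 for Hpx (n = 4 each) and -2.33 for F2 (n = 2 and 4) in EIH blood. F7, at 2.05, rests on 2 AMPH values of 3.77 and 11.27 against 5.44, 3.56 and 7.42 in saline blood, so its sign depends on 1 array.

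In choroid plexus the 9 transcripts did not pass the test in any comparison. The median over the pools was 4.75 to 6.30 for 8 of them and 8.21 for Apoa2. Alb lay between 3.00 and 6.64 on 18 pools with a median of 4.75, and 2 pools were blank. Apoa2 lay between 5.90 and 9.14, and 19 of the 20 pools were at 7.82 or above. Against saline at 3 h, 0 of 9 transcripts were called in AMPH pools (0.156% of all genes, 0.136% higher and 0.0195% lower) and 0 of 9 in EIH pools (0.341%, 0.331% higher and 0.00975% lower), with 1 and 0 at an unadjusted p under 0.05. Against EIH pools at 1 day, 0 of 9 were called in AMPH pools, beside 0% of all genes, again with 0 at an unadjusted p under 0.05. The EIH pools of 1 day are not independent, as 2 rat names each appear in 2 of them, so these p-values are too small. Without replicate 3, which holds both names, 0 of 9 were called as well. The largest AMPH difference was that of Alb, 1.64 ± 0.64 (n = 3 each; adjusted p = 0.24 in limma; 95% interval 0.28 to 2.99), and the interval of Apoa1 was -0.21 to 1.22.

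Between the tissues, the levels under saline at 3 h are given as a description, because the blood levels served to choose the genes and the labels place all 4 of these blood rats in 2 of the 4 pools. Alb averaged 6.98 ± 3.22 in blood and 4.20 ± 0.70 in choroid plexus (SD, n = 3 each). Fgb averaged 6.25 ± 2.10 in blood and 3.86 ± 0.21 in choroid plexus (SD, n = 3 each). Apoa1 averaged 6.10 ± 0.35 in blood and 6.11 ± 0.78 in choroid plexus (SD, n = 4 each), and most of these values lie in the low range.

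By the rat names in the labels, 17 of the 24 blood arrays come from a rat that is also in a choroid plexus pool. These names are not free of conflict, since 4 of them appear under more than 1 treatment or time. The rats of EIH 3 h replicate 1 and AMPH 3 h replicate 1 each appear under a single treatment and time. The rat of EIH 3 h replicate 1 was in a pool whose median deviation for the 9 was 0.04 from the other pools of its group. The rat of AMPH 3 h replicate 1 was in a pool at 0.64. In both pools 0 of the 9 transcripts lay more than 2 log2 units above the other pools. The rats of the other 4 arrays with many high transcripts are in none of the pools by their labels.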

How the data were processed

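Per the labels' protocols, Tri Reagent was used for the RNA and the Agilent Quick Amp kit for Cy3 labelling. Each deposited value is a linear intensity (3.385 to 65491.243). How the authors scanned, normalized and blanked values was not given in the sources used here. Levels are log2 of intensity, with blanks left missing; 0 columns came from outside the series.

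Of the probes, 12926 had 1 gene symbol, 0 several and 1129 none. Names came through the accession for 11481, a current symbol for 1363, a synonym for 78, and 4 were kept. For 2210 genes with several probes, that with the highest mean over the 44 arrays was used. Genes with at least 2 values in each compared group were fitted with limma 3.58.1 in R 4.3.3 (package data.table, version 1.17.8), 1 mean per group over the 24 blood or 20 choroid plexus arrays. A planned fit of blood against choroid plexus under saline is not reported as a test, since its blood levels served to choose the genes and its arrays share rats. P-values were adjusted by Benjamini-Hochberg over all genes and called under 0.05. Nothing says which arrays were processed together, and replicate numbers follow accession order. The fit was tested on simulated data. Summaries and plots used Python 3.11.15, pandas 2.3.3, numpy 2.4.6, scipy 1.17.1 and matplotlib 3.10.9. The RefSeq tables use GRCr8.

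The 9 genes and all lists were chosen with earlier results of these data known. Named beside the 9 were called liver genes without overlap (6 at most, or the largest 4 where fewer than 2 were called), the 12 genes closest to the 9, and genes of other tissues with the largest gap between highest and median blood array. The alternatives were 2 other normalizations, blanks at the array's lowest value, leaving out the dimmest 25% of genes, an intensity trend with robust spread, array weights, fitting just the groups compared, averaging a gene's probes and leaving out each array.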

Additional observations from a re-analysis of the deposited data

Results flagged for a closer look

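In 6 of 92 groups of 4 arrays checked, 1 array lay far from the other 3, by a gap of more than 0.829 of the group's range; chance gives about 5 percent of groups. In blood, Ambp stood at 5.44 on EIH 1 day replicate 2, below 7.29 to 7.54 on the other 3. The other 5 were in choroid plexus. Apoa1 stood at 7.28 on saline 3 h replicate 4, above 5.71 to 5.73. Apoa2 stood at 5.90 on AMPH 1 day replicate 2, below 8.60 to 9.14. Fga stood at 4.12 on EIH 3 h replicate 3, below 5.15 to 5.23. Fgb stood at 5.38 on AMPH 1 day replicate 3, below 6.96 to 7.09. Serpina3c stood at 5.46 on EIH 3 h replicate 1, above 4.47 to 4.64. The values of Fga and Serpina3c lie wholly in the low range, where order is not read. None of the 6 is a blood array with many high plasma protein transcripts.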

How the results depend on the processing

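No paired analysis was possible because the labels give no replicate numbers and the rat names in the titles link no arrays across the treatments compared within a tissue. Of the other liver genes, 11 were called in AMPH blood at 3 h, 17 with an intensity trend and robust spread, 25 with array weights, 7 with only the compared groups in the fit and 4 to 22 leaving out 1 array. The 4 came without AMPH replicate 4, the 22 without AMPH replicate 3, and 5 each without AMPH replicate 2, saline replicate 1 or saline replicate 3. In EIH blood at 3 h, 3 were called, 7 with array weights, 7 with only the compared groups, 5 without the highest array of each group (chosen after seeing the data), and 1 to 3 leaving out 1 array (1 without EIH replicate 1, saline replicate 1 or saline replicate 4). At 1 day, the 1 call in AMPH blood was 0 with array weights, with only the compared groups and without the highest arrays, and 0 to 2 leaving out 1 array (2 without saline replicate 1, 0 without saline replicate 3 or 4 or AMPH replicate 3 or 4). The 1 call in EIH blood was 0 with blanks at the lowest value, with only the compared groups, with the mean over probes and without the highest arrays, 2 with array weights, and 0 to 1 leaving out 1 array (1 only without EIH replicate 2). In choroid plexus, the 0 of 9 plasma protein transcripts called in AMPH pools at 3 h became 1 with array weights (Apoa1), and leaving out 1 pool gave 0 to 0 in all 3 comparisons. Between blood and choroid plexus under saline, the limma count is not a test, since its blood levels chose the genes and its arrays share rats; as a description it was 0, and 1 with blanks at the lowest value (Apoa2, lower in blood), 1 with array weights (Fgb), 2 with the mean over probes (Ahsg higher and Fgg lower in blood) and 0 to 2 leaving out 1 array. The causes were not tested. Of the differences of single plasma protein transcripts, 2 of 114 for EIH at 1 day, both of Fgg, moved by more than 1 SD, and none in the other 3 comparisons did. With no detection calls and 12 blank values in blood, low levels carry no order.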
